A study of Mus musculus with 78 samples.

Results

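The mouse gene Zfp143, its paralog Zfp76 and the cofactor genes Thap11 and Hcfc1 were followed through depletion of ZFP143 protein in mouse embryonic stem cells (mESCs). They were chosen by name, as 4 of the 55401 genes in each of 3 tables of gene counts, and the deposited list of ZFP143 chromatin immunoprecipitation (ChIP-seq) peaks was searched around them. Zfp76 was read from the row named Zfp523, which was matched through Znf76, a synonym that RefSeq lists for Zfp523. The 2 other RefSeq genes that list Zfp76 as a synonym were not used. The cells are E14TG2a mESCs in which Zfp143 carries, just before its stop codon, an FKBP12 degron with an HA tag, followed by a self-cleaving peptide and GFP. All control and treated libraries carry this homozygous knock-in, which was grown from sorted single cells, and no untagged line is in the tables. The small molecule dTAG-V1, used at 500 nM, directs the tagged protein to the VHL ubiquitin ligase. Each table holds 4 groups of 2 replicates. In the TT-seq table, nascent RNA was labelled with 2 mM 4-thiouridine for 10 min with DMSO or at 2, 6 and 24 h of dTAG-V1. The RNA-seq table holds DMSO-treated cells and cells given dTAG-V1 for 24, 48 or 72 h. In the differentiation table, cells were treated with DMSO or dTAG-V1 for 24 h. Other cells were then kept in the same agent while retinoic acid (RA) was given for another 24 h in N2B27 medium. The RA groups were thus collected at 48 h, and the change of medium cannot be told apart from RA. Those with dTAG-V1 had 48 h of it, against 24 h before RA. Each RA effect in dTAG-V1-treated cells, and its difference from that with DMSO, therefore also holds a second day of depletion, which cannot be told apart. ZFP143 ChIP-seq used an antibody to the HA tag, in cells given DMSO or dTAG-V1 for 2 h. The list of CTCF peaks pools those of cells given DMSO and of cells given dTAG-V1 for 6 h. The study's methods call the replicates of TT-seq and RNA-seq biological, while the labels do not say whether they were separate cultures. The p-values measure the spread between the TT-seq or RNA-seq libraries.

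ZFP143 is a zinc finger protein that binds promoters of many housekeeping genes and activates them. ZFP76 has closely related zinc fingers and can recognise similar DNA. THAP11, also called Ronin, carries a THAP-type zinc finger and recruits HCFC1, a large coactivator that does not bind DNA itself but connects promoter-bound factors to histone-modifying enzymes. In mESCs, THAP11 and HCFC1 are known for their part in growth and self-renewal.

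The degron was placed at the end of the Zfp143 reading frame, and its design sequences are given here because ChIP-seq peaks were listed at the same place. In mm10 coordinates (GRCm38), Zfp143 (ENSMUSG00000061079) lies on the forward strand at chr7:110061217-110095394. The guide matched chr7:110094359-110094378, which spans the stop codon at chr7:110094372-110094374 in the last exon, and the capitals below mark its PAM. The genotyping primers lay on either side of the stop codon, and none of these sequences comes from the inserted cassette.
Guide at the stop codon: agggttggatgattaacactCGG
Forward primer, chr7:110094061-110094080: ttggctgtggtgacttagca
Reverse primer, chr7:110094759-110094779, reverse strand: ttctgtgatggctttggagtt

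Of the 4 genes, Zfp76 and Thap11 were bound by ZFP143, with a peak that overlapped the window from 2 kb upstream to 1 kb downstream of a start site and was centred within 2 kb of it. Zfp143 and Hcfc1 were not. The ZFP143 list holds 3189 peaks with a median fold enrichment of 20.8 over input, and it has no replicates.

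Thap11 (ENSMUSG00000036442) is a short gene of 1819 bp, at chr8:105855132-105856950 on the forward strand, and had the stronger promoter peak. Its peak at chr8:105854619-105855450 was 83.3-fold enriched, ranked 214 in the list by fold enrichment, and was centred 97.5 bp upstream of the start. The letters ACTACA, part of a known ZFP143 site, stood on the reverse strand (as TGTAGT) 13 bp from the peak summit. They were found in 33.5% of the 101-base windows around the summits of all peaks, and in 10.3% of the 32851 RefSeq promoters of 300 bases. The bases next to the start held CATTGTGGG, the reverse of CCCNNNATG, a pattern chosen after this promoter had been seen and present in 12.4% of all promoters. The letters TTCCCAG and CCCAGNATG were not in the Thap11 summit window or promoter, while 11.1% and 2.04% of all promoters held them. The capitals below mark the matches, on the forward strand of GRCm38.p6, and the promoter sequence is from RefSeq.
Thap11 peak summit, chr8:105854769-105854869: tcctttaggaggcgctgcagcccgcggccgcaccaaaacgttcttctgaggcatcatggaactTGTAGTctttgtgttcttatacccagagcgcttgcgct
Thap11 promoter up to the RefSeq start, chr8:105854853-105855102: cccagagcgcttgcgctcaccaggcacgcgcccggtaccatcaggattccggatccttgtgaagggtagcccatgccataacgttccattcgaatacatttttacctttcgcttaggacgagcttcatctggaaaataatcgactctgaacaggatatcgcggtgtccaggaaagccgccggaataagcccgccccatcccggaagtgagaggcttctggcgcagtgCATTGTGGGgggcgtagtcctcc

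Thap11 lay in a stretch dense in ZFP143 peaks, with 4 within 50 kb. The others were centred 107 bp from the start of Ranbp10 (119-fold, ranked 64), 1181 bp from that of Cenpt (120-fold, ranked 60) and 38 bp from that of Nutf2 (137-fold, ranked 34). The peak at the Thap11 start overlapped a CTCF peak at chr8:105854663-105854916. The 2 proteins' peak lists overlapped at 6.93% of ZFP143 peaks.

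Zfp76 (ENSMUSG00000024220) lies at chr17:28177129-28205886 on the forward strand, and its peak was weak. The peak at chr17:28177265-28177497 was 8.32-fold enriched, ranked 2554 and was centred 37 bp from the nearest coding start. None of the 4 patterns was in its summit window or in the promoters of Zfp76. It overlapped no CTCF peak, and with a minimum of 10-fold enrichment Zfp76 would not have been called bound.

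Hcfc1 (ENSMUSG00000031386) lies on the reverse strand at chrX:73942792-73966357, and no ZFP143 peak was listed within 50 kb of it. The nearest peak was 548 kb away, on a chromosome that carried 67 peaks in all. Its promoter held none of the patterns, which says only that these letters are not in that window.

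Zfp143 itself had no ZFP143 peak at its start, and none of the patterns in its promoter. The nearest upstream peak, 33.3-fold enriched, was at the start of Ipo7, 43.0 kb away. Both other ZFP143 peaks near Zfp143 lay at its far end, at the knock-in site. They spanned chr7:110094061-110094360, with a 9.10-fold enrichment, and chr7:110094570-110094779, with a 6.72-fold enrichment, and were separated by 209 bp that contain the stop codon. Their outer borders were the outer ends of the genotyping primers, and a CTCF peak of 719 bp had exactly the same borders as the primer product. The part of the knock-in or of its DNA in these peaks was not tested.

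**Figure D1:**
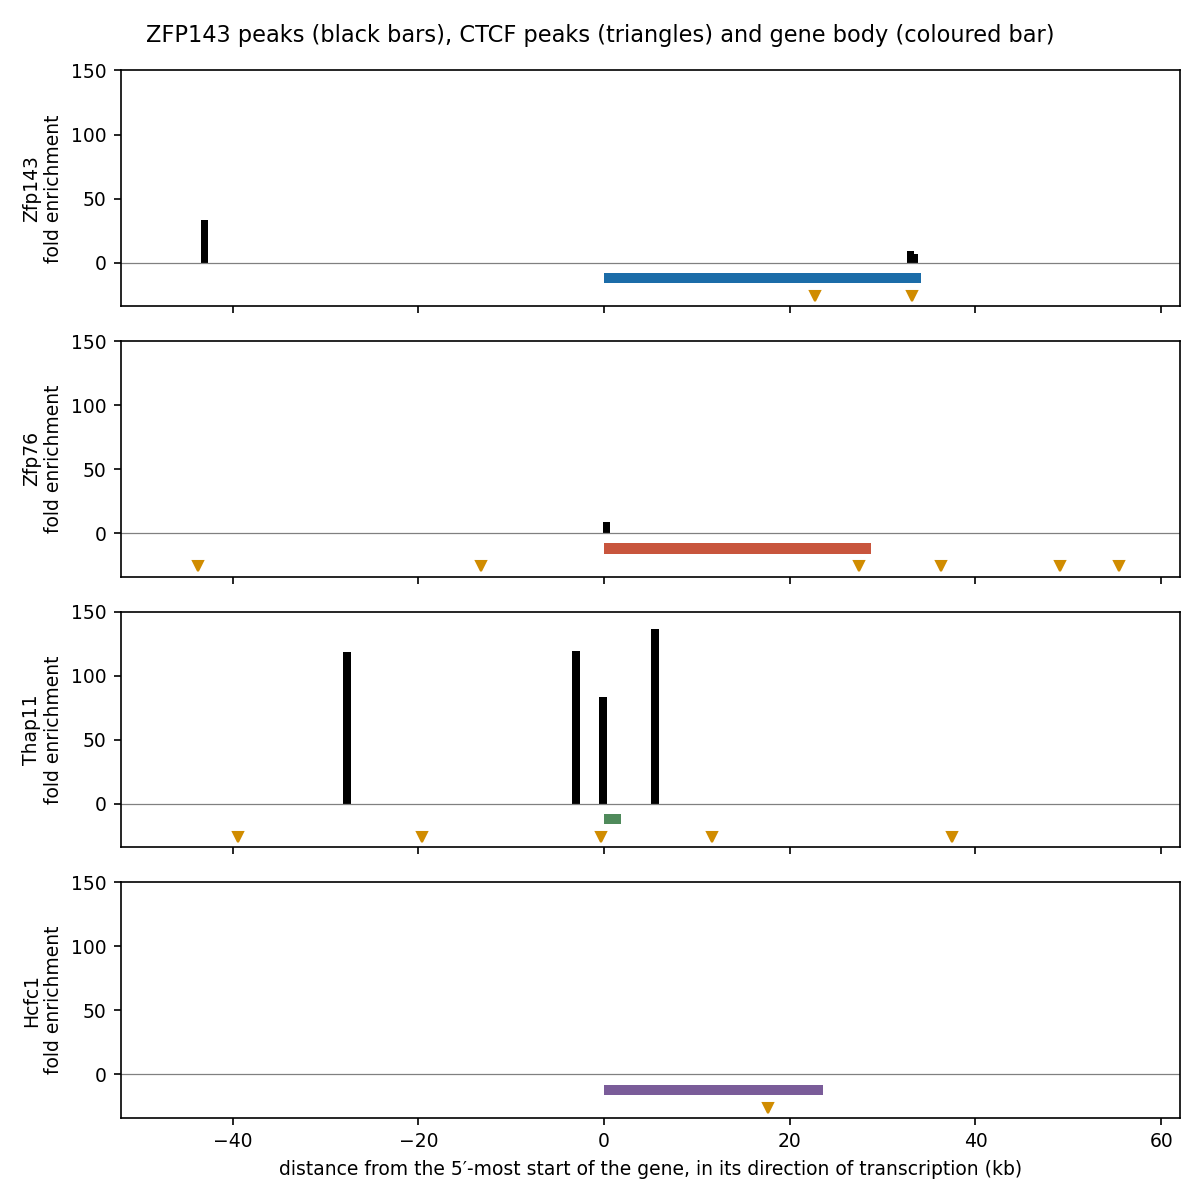
Position of ZFP143 and CTCF peaks around the 4 genes, as distance in kb from each gene's start, with the gene body drawn to scale. Thap11 has 4 ZFP143 peaks within 50 kb, Zfp76 has 1 at its start, Hcfc1 has none, and the peaks of Zfp143 lie upstream at Ipo7 and at the end of the gene.

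**Figure D2:**
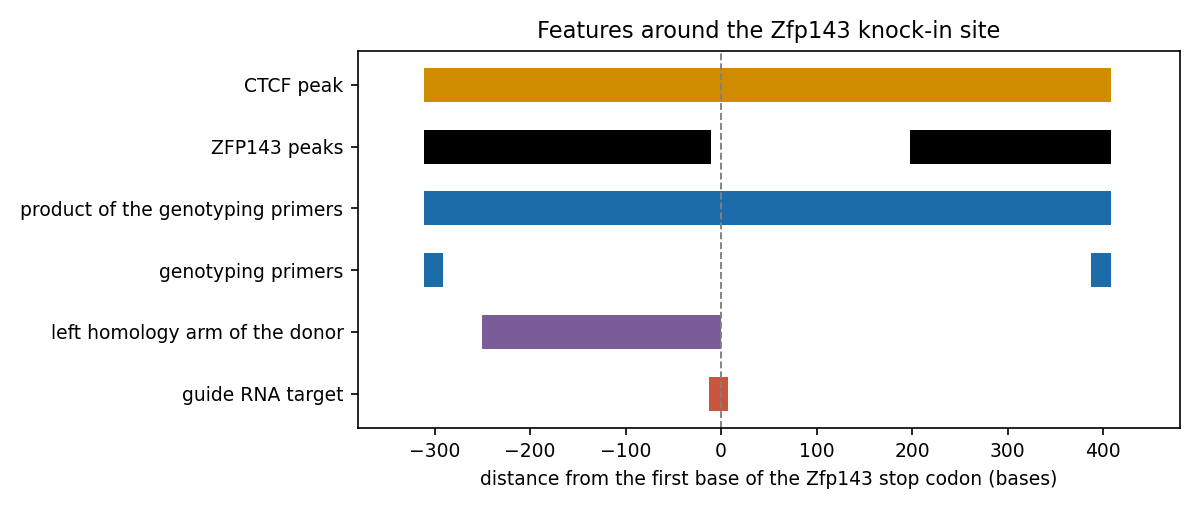
The end of Zfp143 in bp from its stop codon, with the guide, the primers, the left homology arm, and the ZFP143 and CTCF peaks. The outer borders of both ZFP143 peaks and of the CTCF peak of 719 bp coincide with the outer ends of the primers.

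The libraries held 9721568 to 16532077 counts in TT-seq, 10261851 to 15316700 in RNA-seq and 13890761 to 27089033 in the differentiation table. Levels are given as counts per 1000000 (CPM) after TMM scaling, which equalises libraries on the bulk of their genes. The 6 stem cell markers, Pou5f1 and Nanog among them, summed to 2323 to 2725 CPM in TT-seq. In RNA-seq they summed to 4126 to 4200 CPM in DMSO-treated cells and 2749 to 2771 CPM after 72 h of dTAG-V1. In the differentiation table the sums were 4956 to 5239 (DMSO), 4425 to 4435 (dTAG-V1), 587 to 881 (DMSO then RA) and 1048 to 1264 CPM (dTAG-V1 then RA). The 5 RA response markers summed there to no more than 9.45 CPM before RA and to at least 1257 CPM after it. Of these, Hoxb1, Cyp26a1 and Rarb were called lower with dTAG-V1 than with DMSO after RA, and Rarb and Stra8 had called negative interactions (medians over the 5 markers -0.95 and -1.82). In RNA-seq they summed to 1.21 to 1.38 CPM with DMSO against 12.3 to 13.7 CPM at 48 h and 12.6 to 13.4 CPM at 72 h, with no RA given, and in TT-seq they were at 1.97 to 16.8 CPM. The 5 fibroblast markers summed to 3.71 to 4.04 CPM in RNA-seq with DMSO, 10.2 to 11.1 CPM at 48 h and 9.34 to 10.3 CPM at 72 h. In the differentiation table they were at 5.51 to 6.53 (DMSO), 7.77 to 7.90 (dTAG-V1), 24.6 to 30.2 (DMSO then RA) and 58.4 to 60.1 CPM (dTAG-V1 then RA), and in TT-seq at 2.89 to 7.52 CPM. Of these markers, Col1a2 and Col3a1 were at 0 in both RNA-seq libraries with DMSO. The 4 primitive endoderm markers summed to 5.79 to 6.13 CPM in RNA-seq with DMSO, 13.8 to 14.5 CPM at 48 h and 11.2 to 12.3 CPM at 72 h. In the differentiation table they were at 3.83 to 4.30, 6.80 to 9.45, 22.2 to 23.3 and 45.0 to 46.5 CPM in the same order of groups, and in TT-seq at 7.53 to 16.9 CPM. The part of these marker shifts in the changes below was not tested, and in bulk RNA a change in the share of a cell type cannot be told apart from a change in RNA per cell.

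Per length, Hcfc1 was the most transcribed of the 4 genes in DMSO-treated cells and Zfp76 the least. The TT-seq levels were 12.3 ± 0.945 CPM per kb of gene body for Hcfc1, 4.45 ± 0.0662 for Thap11, 2.13 ± 0.0658 for Zfp143 and 0.779 ± 0.0785 for Zfp76 (SD, n = 2). The same order held for RNA per kb of exon, at 67.3 ± 1.33, 44.6 ± 0.408, 12.5 ± 0.258 and 2.28 ± 0.238 CPM per kb (SD, n = 2). In both, neighbours in the order differed by more than their SDs.

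Zfp143 nascent RNA more than doubled within 2 h of dTAG-V1 and then held its level. Its TT-seq levels were 71.3 and 74.4 CPM in the DMSO replicates, 162 and 165 CPM at 2 h, 161 and 164 CPM at 6 h, and 169 and 162 CPM at 24 h. The treated replicates did not overlap the DMSO replicates, and the 3 treated times lay within their spread of each other. The dTAG-V1 treatment acts on protein, so a higher transcript level does not check the labels, and protein was not analysed here. The increases were 2.24-fold, 2.23-fold and 2.28-fold, or log2 fold changes of 1.17 (SE 0.11, adjusted p = 0.00104), 1.16 (SE 0.11, adjusted p = 0.00100) and 1.19 (SE 0.11, adjusted p = 0.000843).

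A gene was called in TT-seq at an adjusted p under 0.05 and a log2 fold change beyond 0.5. By this rule 2.6% of the 17870 genes tested were called at 2 h, 3.23% at 6 h and 6.11% at 24 h. These shares moved with the processing, as given at the end. Genes called higher were fewer, at 0.168%, 0.397% and 2.02%. Zfp143 ranked 17 of 30 by size of change among those called higher at 2 h, 23 of 71 at 6 h, and 201 of 361 at 24 h. Between 2 and 6 h and between 6 and 24 h, 0% of genes passed an adjusted p under 0.05 in edgeR, with 269 and 1922 genes at an unadjusted p under 0.05 and 2 and 149 genes called by DESeq2. For the step from 6 to 24 h, genes also passed in edgeR with a replicate block or without the count filter, as given at the end.

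Reads of Zfp143 could be shared with antisense genes that overlap it, if strands were mixed in counting. The antisense gene 1600010M07Rik changed by log2 fold changes of 0.17, -0.09 and -0.06 in TT-seq at 2, 6 and 24 h, and AA474408 by -0.11, -0.32 and -0.15, none of them called. In RNA-seq and in the differentiation table, 1600010M07Rik had 0 counts in every library. The inserted degron sequence is not part of mm10.

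Zfp143 RNA followed the nascent level, and rose further on the third day. RNA-seq gave 43.0 and 44.3 CPM in the DMSO replicates, 95.5 and 90.8 CPM at 24 h, 95.3 and 93.6 CPM at 48 h, and 111 and 105 CPM at 72 h. The 24 and 48 h replicates lay close together, and both 72 h replicates were above them. The RNA rise was 2.13-fold at 24 h (log2 fold change 1.09, SE 0.06, adjusted p = 2.47e-08), 2.16-fold at 48 h (1.11, SE 0.06, adjusted p = 4.31e-09) and 2.47-fold at 72 h (1.30, SE 0.06, adjusted p = 3.43e-12).

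RNA-seq calls against DMSO rest on a test against a 1.5-fold change at an adjusted p under 0.01, which 5.73%, 18.2% and 25.8% of the 13925 genes tested passed at 24, 48 and 72 h. A test against no change at an adjusted p under 0.05, given beside it, passed 46.9%, 67% and 72.7%. The step from 48 to 72 h was a log2 fold change of 0.19 for Zfp143 (SE 0.05, adjusted p = 0.00526), in a step where 43.4% of genes passed an adjusted p under 0.05. This call was lost without replicate 2 of 48 h (0.17, adjusted p = 0.0564) or replicate 1 of 72 h (0.14, adjusted p = 0.0957). The step from 24 to 48 h, which 46.3% of genes passed, was 0.02 for Zfp143 (adjusted p = 0.799).

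**Figure D3:**
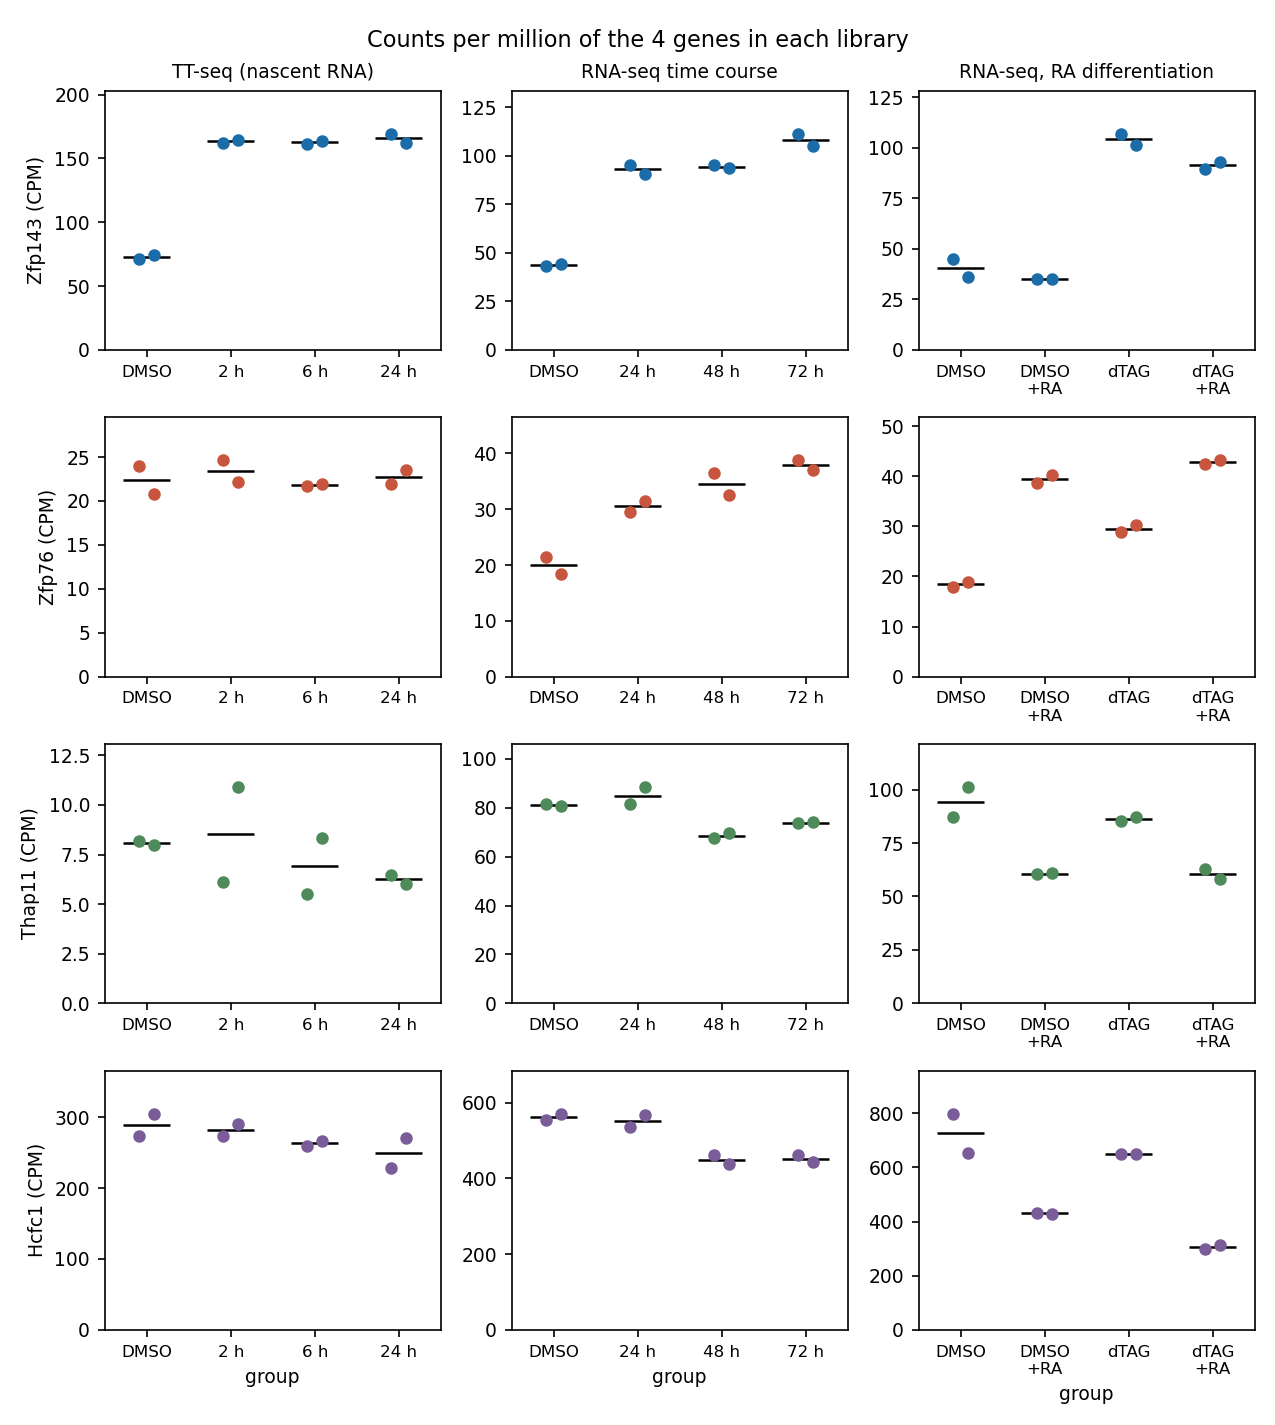
CPM of the 4 genes in each of the 24 libraries, by group, with points for replicates and lines for group means. Zfp143 in all dTAG-V1 groups lies above the DMSO groups of its table, from 89.6 CPM upwards in RNA against at most 44.9 CPM in DMSO-treated cells.

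Zfp76, the paralog, showed no detectable nascent change, while its RNA rose over 72 h. Its TT-seq levels were 24.0 and 20.8 CPM in DMSO, 24.6 and 22.2 CPM at 2 h, 21.7 and 22.0 CPM at 6 h, and 21.9 and 23.5 CPM at 24 h. Each treated group overlapped DMSO, with a log2 fold change at 24 h of 0.02 and a 95% interval from -0.33 to 0.38 (adjusted p = 0.958). In RNA-seq, Zfp76 read 21.4 and 18.5 CPM in DMSO, 29.5 and 31.5 CPM at 24 h, 36.4 and 32.5 CPM at 48 h, and 38.8 and 37.1 CPM at 72 h. No treated replicate reached down to the DMSO replicates, and each later day's mean was higher. The increase was 1.54-fold at 24 h (0.62, SE 0.10, adjusted p = 0.899 against 1.5-fold and 4.94e-06 against no change), 1.74-fold at 48 h (0.80, SE 0.09, adjusted p = 0.0174 and 1.77e-08) and 1.91-fold at 72 h (0.94, SE 0.09, adjusted p = 0.000343 and 4.15e-10).

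Zfp76 was thus called at 72 h alone by the 1.5-fold test. Without DMSO replicate 2 it was lost (0.82, adjusted p = 0.0249), and DESeq2 also missed it (0.92, adjusted p = 0.0507). The 48 h change passed without DMSO replicate 1 (0.90, adjusted p = 0.00575) or without replicate 2 of 48 h (0.88, adjusted p = 0.00830). Neither daily step of Zfp76 was called, at 0.18 from 24 to 48 h (adjusted p = 0.0940) and 0.13 from 48 to 72 h (adjusted p = 0.206), and without replicate 2 of 48 h the first was 0.26 (adjusted p = 0.0481).

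Thap11, although bound at its promoter, was not called in TT-seq at any time, and its nascent level was measured with little precision. Its TT-seq levels were 8.17 and 8.0 CPM in DMSO, 6.14 and 10.9 CPM at 2 h, 5.53 and 8.35 CPM at 6 h, and 6.49 and 6.00 CPM at 24 h. These came from 66 to 181 counts per library, and the 2 h replicates lay on either side of the DMSO replicates. The log2 fold change was 0.08 at 2 h (95% interval -0.63 to 0.80) and -0.37 at 24 h (95% interval -1.10 to 0.36, adjusted p = 0.554), so a halving at 24 h lies within the interval.

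Thap11 RNA dipped slightly on the second day. Its RNA-seq levels were 81.7 and 80.6 CPM in DMSO, 81.4 and 88.5 CPM at 24 h, 67.5 and 69.7 CPM at 48 h, and 73.9 and 74.0 CPM at 72 h. The 24 h replicates overlapped DMSO, and those at 48 and 72 h lay below it. The log2 fold changes were 0.07 at 24 h (adjusted p against no change = 0.371), -0.24 at 48 h (SE 0.06, 0.000796) and -0.13 at 72 h (SE 0.06, 0.0428), none past the 1.5-fold test. The step from 24 to 48 h was -0.31 (SE 0.06, adjusted p = 0.000113). Scaling by library size alone, which moves the median of all genes up by 0.13, 0.20 and 0.22 at the 3 times, gave -0.042 for Thap11 at 48 h and 0.086 at 72 h.

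Hcfc1, the gene without a ZFP143 peak nearby, showed a small fall in RNA after the first day. In TT-seq it read 273 and 305 CPM in DMSO, 274 and 291 CPM at 2 h, 259 and 267 CPM at 6 h, and 228 and 271 CPM at 24 h. The 2 h replicates overlapped DMSO and those at 6 and 24 h lay below it, with a log2 fold change at 24 h of -0.21 (95% interval -0.50 to 0.07, adjusted p = 0.373). RNA-seq gave 555 and 570 CPM in DMSO, 536 and 566 CPM at 24 h, 460 and 439 CPM at 48 h, and 461 and 443 CPM at 72 h. The 48 and 72 h replicates lay together, below all others. Their log2 fold changes were -0.32 (SE 0.04, adjusted p against no change = 1.37e-07) and -0.32 (SE 0.04, 1.47e-07), neither past the 1.5-fold test, against -0.03 at 24 h (0.579). By library size alone they were -0.12 and -0.097. The step from 24 to 48 h was -0.29 (SE 0.04, adjusted p = 2.03e-06).

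**Figure D4:**
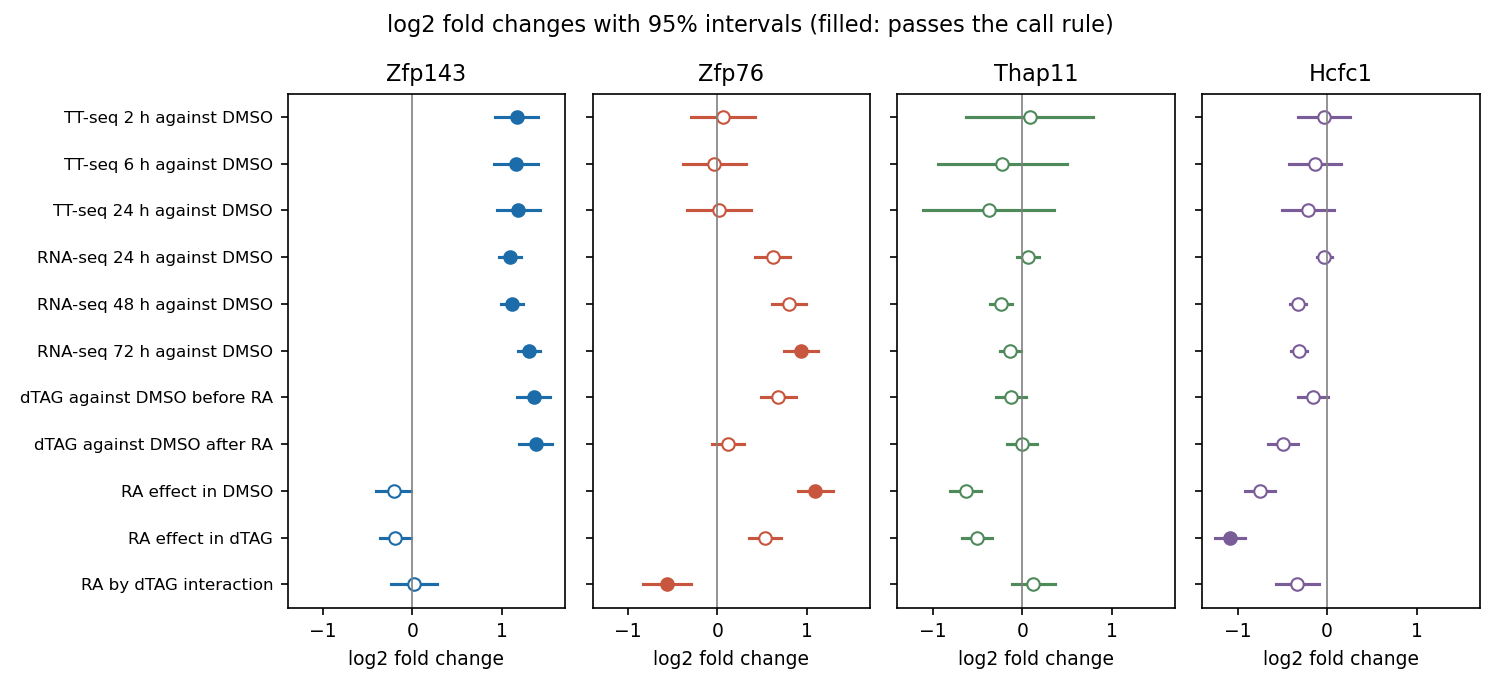
Log2 fold changes of the 4 genes with 95% intervals, for TT-seq at 2, 6 and 24 h, RNA-seq at 24, 48 and 72 h, and the differentiation table. Zfp143 lies above 1 in every comparison of dTAG-V1 with DMSO, Zfp76 is called at 72 h of RNA-seq and at no time in TT-seq, and Thap11 and Hcfc1 lie near or below 0.

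Before RA, the differentiation table repeated the dTAG-V1 comparison at 24 h in other libraries. Zfp143 read 44.9 and 36.2 CPM with DMSO and 107 and 101 CPM with dTAG-V1, a 2.57-fold rise (log2 fold change 1.36, SE 0.09, adjusted p = 7.47e-08). Zfp76 read 17.9 and 18.9 CPM against 28.9 and 30.2 CPM, a 1.61-fold rise (0.68, SE 0.09, adjusted p = 0.332 against 1.5-fold and 6.33e-06 against no change). For both genes the groups did not overlap. Thap11 (-0.13, adjusted p against no change = 0.212) and Hcfc1 (-0.16, 0.109) did not pass either test. The 1.5-fold test called 6.4% of 15915 genes, and 42% passed against no change.

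After RA, Zfp143 was again higher with dTAG-V1. It read 35.0 and 35.3 CPM with DMSO and 89.6 and 93.0 CPM with dTAG-V1, which is 2.60-fold (1.38, SE 0.09, adjusted p = 4.14e-08). The interaction is the difference between the dTAG-V1 effects after and before RA, at 48 and 24 h of dTAG-V1. For Zfp143 it was 0.02 (SE 0.13, adjusted p = 0.922). Here 16.5% of genes were called against 1.5-fold and 60.5% passed against no change.

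Zfp76 was higher with RA in both agents, with the larger difference in DMSO-treated cells. With RA it read 38.7 and 40.2 CPM after DMSO and 42.5 and 43.2 CPM after dTAG-V1, so the groups with RA lay above those without, and the dTAG-V1 replicates above the DMSO replicates by 0.12 (log2, SE 0.09, adjusted p against no change = 0.236). In DMSO-treated cells, RA raised Zfp76 2.14-fold (1.10, SE 0.09, adjusted p = 6.27e-06), where 43.9% of genes were called and 77.9% passed against no change. In dTAG-V1-treated cells the RA effect was 0.53 (SE 0.09, adjusted p = 0.685 against 1.5-fold and 9.56e-06 against no change), where 43.5% were called and 79.5% passed. The interaction was -0.56 (SE 0.13, 95% interval -0.83 to -0.30, adjusted p = 0.00125), and 31.7% of genes had an interaction at an adjusted p under 0.05 beyond 0.5. Without replicate 1 of dTAG-V1 with RA it was -0.49 (adjusted p = 0.0120), and with library size alone also -0.49 (adjusted p = 0.00402), just inside the limit of 0.5.

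Thap11 and Hcfc1 were lower with RA in both agents. Thap11 read 87.3 and 101 CPM with DMSO and 60.6 and 60.9 CPM with DMSO then RA, and 85.4 and 87.2 CPM with dTAG-V1 against 63.0 and 58.3 CPM with dTAG-V1 then RA. The RA groups lay below the others, and the RA effects of -0.63 and -0.51 (SE 0.08 each, adjusted p against no change = 4.29e-07 and 6.79e-06) did not pass the 1.5-fold test. By library size alone they were -0.31 and -0.12. For Thap11 the dTAG-V1 effect after RA was -0.00 (SE 0.08, adjusted p against no change = 0.984), which turned to 0.026 with DESeq2 size factors.

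Hcfc1 read 798 and 654 CPM with DMSO, 433 and 429 CPM with DMSO then RA, 649 and 648 CPM with dTAG-V1, and 297 and 314 CPM with dTAG-V1 then RA. The last group was the lowest, and the DMSO replicates differed most. In dTAG-V1-treated cells, Hcfc1 with RA was at 0.471 of its level before RA (log2 fold change -1.09, SE 0.08, adjusted p = 1.25e-06). By library size alone this was -0.69 (adjusted p = 0.0649). These groups had 48 and 24 h of dTAG-V1. Without RA, Hcfc1 changed by -0.29 between these times in RNA-seq, and the part of this in the fall was not tested. In DMSO-treated cells its RA effect was -0.75 (SE 0.08, adjusted p = 0.0143 against 1.5-fold and 2.86e-08 against no change), and without DMSO replicate 2 it was -0.90 and called (adjusted p = 0.000131). By library size alone it was -0.43. After RA, Hcfc1 in dTAG-V1-treated cells was 0.709 of the DMSO level (-0.50, SE 0.08, adjusted p against no change = 2.22e-05), and by library size alone the difference was -0.29. The interaction was -0.33 (SE 0.11, adjusted p = 0.0228), within the limit of 0.5 and so not called. Leaving out 1 library at a time gave -0.49 to -0.20, with an adjusted p under 0.05 only without DMSO replicate 1 (0.000518) and up to 0.166. Its adjusted p was 0.0784 by library size alone, 0.0543 with DESeq2 size factors and 0.0626 in DESeq2. The RA effect on Zfp143 was -0.21 in DMSO-treated cells (adjusted p against no change = 0.0497) and -0.19 in dTAG-V1-treated cells (0.0424), and by library size alone it was 0.11 and 0.20. That scaling moved the median of all genes by 0.32 and 0.39 for these 2 RA effects, and by 0.13 and 0.21 for dTAG-V1 before and after RA.

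The genes around the 4 genes differed in their response to dTAG-V1. Next to Zfp143, Ipo7, a nuclear import receptor gene that starts at a ZFP143 peak, fell in TT-seq at 2, 6 and 24 h (log2 fold changes -0.92, -0.84 and -1.0, adjusted p = 0.0231, 0.0336 and 0.0117) and in RNA-seq at 24, 48 and 72 h (-0.90, -1.12 and -1.16, adjusted p = 8.91e-07, 1.81e-11 and 3.07e-12). Its dTAG-V1 effect was -1.05 before RA and -0.88 after, both called. Next to Thap11, Nutf2, a nuclear transport factor gene, fell in TT-seq (-2.27, -2.31 and -2.54, adjusted p = 0.000168, 0.000159 and 7.53e-05) and in RNA-seq (-1.48, -1.94 and -2.32). Nutf2 also fell with dTAG-V1 before and after RA (-1.85 and -1.63). Cenpt, a centromere protein gene bound by 2 peaks, was not called in TT-seq (0.10, -0.04 and -0.04), and among the comparisons of dTAG-V1 with DMSO was called after RA alone (0.77, adjusted p = 0.00998). In RNA-seq, Cenpt was 0.52 at 48 h and 0.50 at 72 h (adjusted p against no change = 4.47e-09 and 5.54e-09), neither past the 1.5-fold test.

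Of the other neighbours, Scube3 next to Zfp76 was not called in TT-seq (-0.39, -0.47 and -0.73) or in RNA-seq at 24 h (-0.25), and rose in RNA-seq at 48 and 72 h (1.05 and 1.03). Before RA its dTAG-V1 effect was -0.85 (adjusted p = 0.0256 against 1.5-fold and 1.06e-06 against no change), and its interaction was 1.14 (adjusted p = 6.90e-07). Def6, on the other side of Zfp76, was higher with dTAG-V1 after RA (1.09, adjusted p = 7.56e-05), against -0.36 before RA (adjusted p against no change = 0.00490), and had an interaction of 1.44 (adjusted p = 6.39e-08). In RNA-seq, Def6 was 0.51 at 48 h (adjusted p against no change = 2.76e-07), not past the 1.5-fold test. Renbp, next to Hcfc1, was higher with dTAG-V1 after RA (1.25, adjusted p = 8.16e-06), against -0.80 before RA (adjusted p against no change = 3.18e-06), and had an interaction of 2.05 (adjusted p = 1.98e-09). In RNA-seq, Renbp was -0.62 at 24 h and 0.53 at 72 h (adjusted p against no change = 8.75e-11 and 6.10e-11), neither past the 1.5-fold test. Wee1, next to Zfp143, and Irak1, next to Hcfc1, were called in no comparison of dTAG-V1 with DMSO, although Wee1 was -0.68 at 72 h of RNA-seq (adjusted p = 0.0425 against 1.5-fold and 7.12e-12 against no change) and Irak1 0.41 after RA (adjusted p against no change = 5.14e-05). AC126937.2, which overlaps the start of Zfp76 on the other strand, was not called in TT-seq (-0.74, -0.89 and -0.22, from 8 to 25 counts).

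Among 26 listed genes, partners of HCFC1 together with the paralog Hcfc2, 6 were bound by ZFP143 and 1, Hcfc2, was called in TT-seq. By the same rule, 9.89% of 21951 protein-coding genes were bound, and 15.3% of the 13660 tested in TT-seq, which is the background for the bound genes of each list. The 1 of 26 called in TT-seq stands beside 2.6%, 3.23% and 6.11% of all genes at the 3 times. Hcfc2, the paralog of Hcfc1 with a 53.3-fold enriched peak, fell at all 3 times (log2 fold changes -1.87, -1.40 and -1.15, adjusted p = 0.00349, 0.0113 and 0.0199). The list's median TT-seq change was 0.08, 0.05 and -0.10, against 0.01 over all genes at each time. In RNA-seq, 0 rose and 1 fell at 24 h, 1 rose and 2 fell at 48 h, and 1 rose and 6 fell at 72 h. Over all genes tested, 5.73% were called at 24 h (323 higher, 475 lower), 18.2% at 48 h (1456 higher, 1073 lower) and 25.8% at 72 h (1912 higher, 1677 lower). Hcfc2 was the gene called at 24 h (-1.59). It was -0.87 at 48 h (adjusted p = 0.0239 against 1.5-fold and 1.35e-06 against no change) and -0.21 at 72 h (adjusted p against no change = 0.113), with called steps between these times of 0.71 (adjusted p = 0.000742) and 0.66 (adjusted p = 0.000227). At 72 h the 3 with the greatest change were Creb3, a transcription factor that binds HCFC1 (1.35), Hdac1, a histone deacetylase (-1.04), and Hcfc1r1 (-1.0). The list's median RNA change was -0.08, -0.07 and -0.22, and that of all genes 0.02, 0.01 and 0.02.

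Of the 26 genes in the list of HCFC1 partners, the paralog Hcfc2 had the largest interaction. Before RA it was called lower in dTAG-V1-treated cells (-1.93), as the only gene of the list, where 6.4% of all genes were called. Its RA effect was 2.95 in dTAG-V1-treated cells (adjusted p = 1.65e-13) and 0.75 in DMSO-treated cells (adjusted p = 0.0426), with an interaction of 2.19 (adjusted p = 3.61e-09). After RA the dTAG-V1 effect on Hcfc2 was 0.27 (adjusted p against no change = 0.0300), not past the 1.5-fold test. The listed genes with a called interaction were Hcfc2 and, in the other direction, Creb3 (-0.95), Foxk2 (-0.71) and Dpy30 (-0.70), so 4 of 26 were called beside 31.7% of all genes. In DMSO-treated cells 0 rose and 9 fell with RA, led by Wdr5 (-1.63), E2f4 (-1.48) and Sin3a (-1.17), and in dTAG-V1-treated cells 1 rose and 7 fell. Over all genes, 43.9% were called in DMSO-treated cells (4113 higher, 2877 lower) and 43.5% in dTAG-V1-treated cells (3980 higher, 2939 lower). The list's median RA effect was -0.52 and -0.43, against 0.03 and 0.0018 over all genes. After RA, E2f4 (-1.14) and Rbbp5 (0.80) were called between the agents, 2 of 26 beside 16.5% of all genes.

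The other THAP genes had 3 bound of 8, and none was called in TT-seq, against 2.6% to 6.11% of all genes. Thap2, bound by a 28.1-fold enriched peak, was the 1 of 7 tested that passed the 1.5-fold test in RNA-seq, with 1.41 at 48 h and 1.85 at 72 h, where 18.2% and 25.8% of all genes were called. Against no change, 2 THAP genes were higher and 1 lower at 24 h, 1 higher and 2 lower at 48 h, and 3 higher and 4 lower at 72 h, where 46.9%, 67% and 72.7% of all genes passed. With RA, 2 rose (Thap2 and Thap3) and 1 fell (Thap7) in DMSO-treated cells and Thap2 rose in dTAG-V1-treated cells, while Thap3 (-0.91) and Thap7 (0.72) had called interactions. That is 3 of 7, 1 of 7 and 2 of 7, beside 43.9%, 43.5% and 31.7% of all genes. Of 10 further promoter factors, 2 were bound and none was called in TT-seq, against 2.6% to 6.11% of all genes. In RNA-seq, 1 of the 10, Nfya, was called at 48 h (-0.84), against 18.2% of all genes, while against no change 2 were higher and 7 lower at 48 h, and 1 higher and 7 lower at 72 h, beside 67% and 72.7% of all genes. With RA, Nfyc (-1.61) and Taf1 (-0.83) fell in DMSO-treated cells, these and Ctcf (-0.78) fell in dTAG-V1-treated cells, and Nfya had an interaction of -0.51. These 2, 3 and 1 of 10 stand beside the same 43.9%, 43.5% and 31.7% of all genes. Against no change, all 10 factors were lower for both RA effects, where 77.9% and 79.5% of all genes passed in either direction and 5973 and 6253 of 15915 were lower.

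The VHL ligase that dTAG-V1 recruits had 3 bound genes of 6. Nedd8, which encodes the modifier that activates the ligase and has a 179-fold enriched peak, fell in TT-seq (-0.92, -0.93 and -1.11, adjusted p = 0.0143, 0.0134 and 0.00478). In RNA-seq, Nedd8 fell as well at 24, 48 and 72 h (-0.86, -1.18 and -1.06). Elob, a subunit of the ligase, fell in TT-seq at 24 h (-0.73, adjusted p = 0.0315) and in RNA-seq at 72 h (-1.13). The 1, 1 and 2 of 6 called in TT-seq stand beside 2.6%, 3.23% and 6.11% of all genes, and the 1, 1 and 2 of 6 in RNA-seq beside 5.73%, 18.2% and 25.8%. Nedd8 also fell with dTAG-V1 before and after RA (-1.24 and -0.98), 1 of 6 in each, where 6.4% and 16.5% of all genes were called. For the RA effects in DMSO- and dTAG-V1-treated cells, 0 of 6 passed the 1.5-fold test, against 43.9% and 43.5% of all genes. Against no change, 1 was higher and 3 were lower in DMSO-treated cells, and 1 was higher and 4 were lower in dTAG-V1-treated cells, beside 77.9% and 79.5% of all genes.

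**Figure D5:**
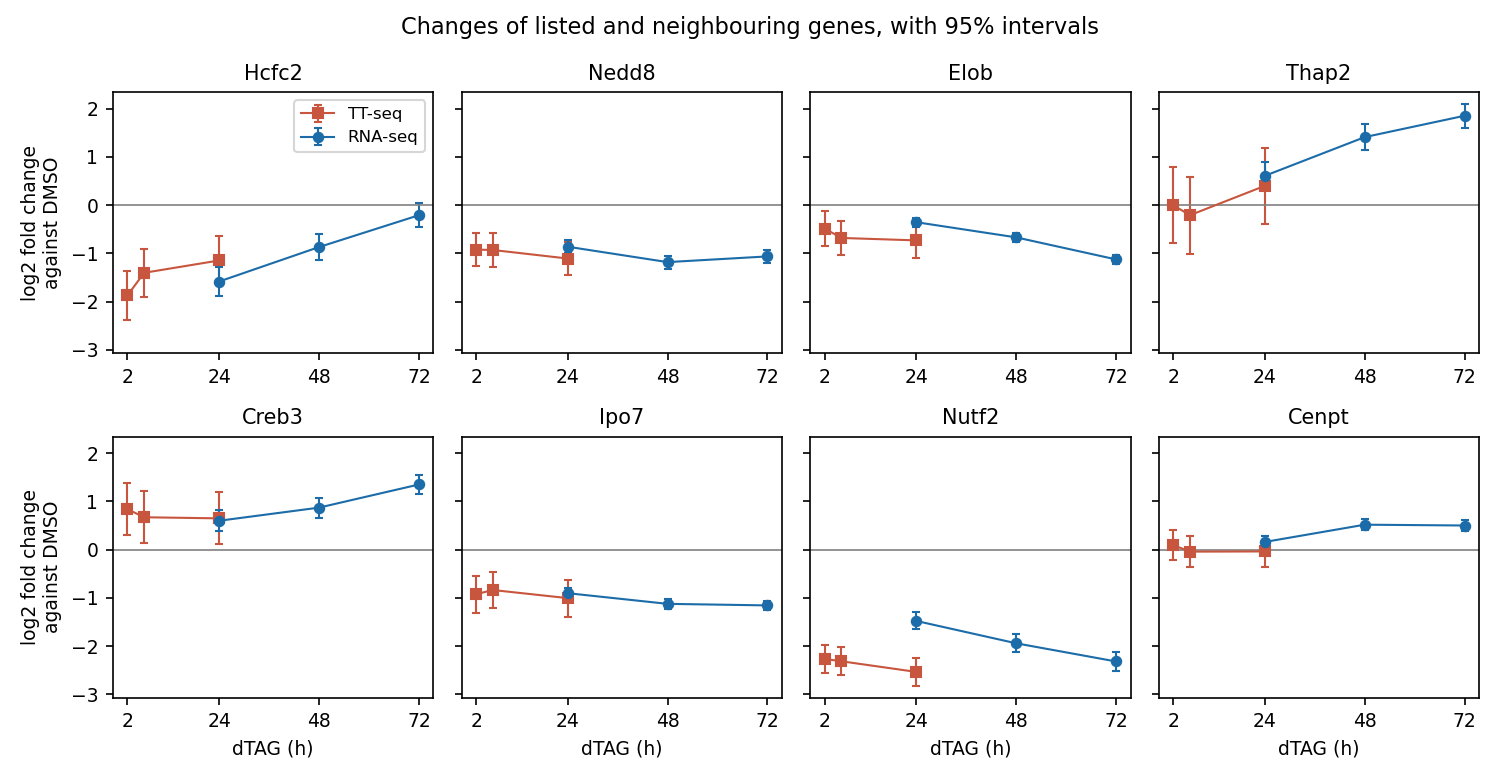
Log2 fold changes of the neighbours and of the named list genes in TT-seq and RNA-seq after dTAG-V1. Nutf2, Ipo7 and Nedd8 lie below 0 at each time, Hcfc2 returns to -0.21 at 72 h of RNA-seq, and Thap2 and Creb3 lie above 0 in RNA-seq at 48 and 72 h.

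The genes most like each member over the 24 libraries were taken from 12807 others tested in all 3 tables, by Pearson's r of log2 CPM centred on the DMSO libraries without RA of the same table. The libraries share their groups and tables, so r is a description. For Zfp143 they were 1700034P13Rik (r = 0.962), Rabl3 (0.944), Mtbp (0.930), Lysmd1 (0.926) and Slc7a11 (0.925). For Zfp76 they were Mef2b (0.969), St3gal1 (0.964) and Wdr91 (0.959). For Thap11 they were Bag6 (0.868), Bag5 (0.865) and Lsm2 (0.864), and for Hcfc1 they were Ddx21 (0.983), Prpf31 (0.977) and Kpnb1 (0.974).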

How the data were processed

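Gene counts were deposited by the authors for TT-seq, an RNA-seq time course and an RA differentiation series. Per the study's methods, reads were mapped to mm10 with GENCODE vM25, TT-seq reads were split by strand and counted over whole genes with HTSeq, and RNA-seq used a stranded kit and STAR; the strand column taken from STAR is not given in the sources used here. The deposited peak lists, called with MACS2 against input, give the fold enrichment (a ratio) and the −log10 q-value of each peak, 1 list a factor. Positions, lengths and names were taken here from GENCODE vM21, which holds 55141 of the 55401 counted gene IDs.

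One fit per table, over all 8 of its libraries, was made in edgeR 4.0.16 (R 4.3.3): TMM scaling, genes with over 10 counts in at least 4 of 8 libraries, and the quasi-likelihood test with Benjamini-Hochberg adjustment. RNA comparisons with DMSO and RA effects used glmTreat against 1.5-fold. SE was derived from the F statistic. DESeq2 1.42.0 and other scalings, filters and samples were alternatives. Scripts were tested on simulated data. No libraries held identical values.

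Named genes were the 4 members, their nearest coding genes, genes at the peaks that bind them, called members of fixed lists (the 3 with the greatest change where over 6 were called) and the genes most like each member. The members and lists were chosen with earlier results of these data known.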

Additional observations from a re-analysis of the deposited data

Results flagged for a closer look

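A test of the difference itself passed for 4 values, each given here with no explanation. Between 24 and 48 h of dTAG-V1, RNA changed by a log2 fold change of -0.31 for Thap11 and of -0.29 for Hcfc1, with both 48 h replicates below both 24 h replicates for each gene, in a step that 46.3% of all genes passed. Between 48 and 72 h it changed by 0.19 for Zfp143, with both 72 h replicates above both 48 h replicates, in a step that 43.4% of all genes passed, and this was lost without replicate 2 of 48 h or replicate 1 of 72 h. The effect of RA on Zfp76 differed between dTAG-V1- and DMSO-treated cells by -0.56, where 31.7% of all genes were called. This difference also holds a second day of dTAG-V1. Without replicate 1 of dTAG-V1 with RA or by library size alone it was -0.49, inside the limit of 0.5.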

How the results depend on the processing

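The dTAG-V1 calls of Zfp143 held under every alternative run. The numbers of genes called in TT-seq at 2, 6 and 24 h were 936, 1318 and 2203 without a filter on low counts, with 3 and 751 for the steps from 2 to 6 h and 6 to 24 h, for which DESeq2 gave 2 and 149. With the replicate number as a block they were 749, 1315 and 2223, with 220 for the step from 6 to 24 h, and the block changed no call of the 4 genes. The differences in log2 CPM between replicates 1 and 2 of a group were correlated over genes with those of each other group. This gave r of 0.19 to 0.63 in TT-seq, -0.04 to 0.06 in RNA-seq and -0.10 to 0.13 in the differentiation table. Nothing in the labels pairs same-numbered libraries. Fitting only the groups compared gave 343 at 24 h. Tests against no change gave 6536, 9330 and 10122 in RNA-seq, 6683 and 9635 for dTAG-V1 before and after RA, and 12398 and 12653 for the RA effects. Tested against 1.5-fold at an adjusted p under 0.01, DESeq2 called 437, 1509, 2279, 617 and 1554 genes for the first 5 of these comparisons, where edgeR called 798, 2529, 3589, 1019 and 2620. Against no change, also called were Zfp76 at 24 h (0.62), 48 h (0.80), before RA (0.68) and for RA in dTAG-V1 (0.53), Thap11 at 48 h (-0.24), 72 h (-0.13) and for RA in DMSO (-0.63) and dTAG-V1 (-0.51), Hcfc1 at 48 h (-0.32) and 72 h (-0.32), after RA (-0.50) and for the RA effect in DMSO (-0.75), and Zfp143 for RA in DMSO (-0.21) and dTAG-V1 (-0.19).

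With library size alone, Zfp76 was called at 48 h (1.00), from 24 to 48 h (0.25) and for RA in dTAG-V1 (0.93), its interaction (-0.49) and the RA effect on Hcfc1 in dTAG-V1 (-0.69) were lost, and Hcfc1 at 24 h of RNA-seq (0.10) and from 6 to 24 h of TT-seq (0.0022), Thap11 at 72 h (0.086), before RA (0.0099) and after RA (0.21), and Zfp143 for RA in DMSO (0.11) and dTAG-V1 (0.20) changed sign. Without a filter, Zfp143 from 24 to 48 h (-0.0059) and its interaction (-0.035) changed sign and Hcfc1 was called for RA in DMSO (-0.78), as it was with DESeq2 size factors (-0.77). DESeq2 lost Zfp76 at 72 h (0.92), and Thap11 after RA was 0.026 in it and with its size factors. Fitting only the groups compared, Hcfc1 from 48 to 72 h was -0.00074. At 10-fold enrichment or more, 1 of the 4 genes was bound, and 0 ZFP143 peaks near them had a CTCF centre within 200 bp, against 3 that overlapped a CTCF peak. The cause of these changes was not tested.

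Leaving out 1 library at a time gave 113 to 321, 118 to 347 and 467 to 632 genes called in TT-seq at 2, 6 and 24 h, fewer than the 465, 577 and 1091 with all libraries, with a group of 1 assumed to vary like the others. Calls changed for Zfp76 at 48 h (0.69 to 0.90), 72 h (0.82 to 1.03), from 24 to 48 h (0.10 to 0.26) and in its interaction (-0.60 to -0.49), for Zfp143 from 48 to 72 h (0.14 to 0.23) and for Hcfc1 for RA in DMSO (-0.90 to -0.61). Uncalled values that crossed 0 in TT-seq against DMSO were Hcfc1 at 2 h (-0.12 to 0.065), Thap11 at 2 h (-0.39 to 0.43) and 6 h (-0.55 to 0.048), and Zfp76 at 2 h (-0.020 to 0.16), 6 h (-0.13 to 0.058) and 24 h (-0.062 to 0.12). In the TT-seq steps they were Thap11 (-0.65 to 0.16 and -0.42 to 0.17), Zfp143 (-0.019 to 0.0035 and -0.0024 to 0.070) and Hcfc1 from 6 to 24 h (-0.20 to 0.043). In RNA they were Hcfc1 at 24 h (-0.071 to 0.010) and from 48 to 72 h (-0.034 to 0.036), Zfp143 from 24 to 48 h (-0.016 to 0.057) and in its interaction (-0.15 to 0.16), and Thap11 after RA (-0.027 to 0.078). Thap11 in TT-seq rests on 66 to 181 counts per library.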
